A study of Homo sapiens with 6 samples.

Results

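The genes described here form a list of 45 genes of glucose use and of the hypoxia-inducible factors (HIFs), listed by symbol. Of the 45, 44 had a row in a table of 15585 genes from 6 RNA-seq libraries, and 41 of these 44 had enough reads to enter a test that covered 11844 genes. The list fell into 8 HIF subunits and regulators, 19 genes of glucose uptake and the glycolytic steps, 6 genes of pyruvate and lactate handling, and 12 HIF target genes outside glycolysis. The libraries came from cells labelled U2OS, a human osteosarcoma line, with 3 libraries (siCTR) from cells transfected with control siRNAs and 3 (siLSD1) from cells transfected with siRNAs against LSD1, all taken 48 h after transfection. LSD1, encoded by KDM1A, is a histone demethylase that removes methyl groups from histone H3 lysine 4. Both groups thus had siRNA transfection in common, and the labels name no untransfected cells, no siRNA sequence and no oxygen level. Nor do they say whether the 3 libraries of a group came from separate cultures, so the p-values measure the spread between these libraries, which may be technical. The study carried out this RNA-seq to see whether loss of LSD1 changed the expression of DNA replication genes. Here the same data were read for the HIF and glycolysis genes.

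As background, HIF1A and EPAS1 are the oxygen-regulated alpha subunits of HIF, which pair with ARNT. In oxygen, the prolyl hydroxylases EGLN1, EGLN2 and EGLN3 mark the alpha subunits for VHL, which has them degraded, while HIF1AN blocks their coactivator contact. When oxygen falls, the stabilised factor binds hypoxia response elements and raises glucose transporters, nearly every glycolytic enzyme, lactate export and genes such as VEGFA and CA9. In cancer cells much of this programme runs in oxygen as well, and LSD1 is known to stabilise the HIF1A protein, a level that RNA-seq does not read.

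The knockdown was read first. KDM1A (chr1:23019443-23083689, plus strand, GRCh38, GENCODE) stood at 473, 506 and 489 CPM (reads scaled to library size with edgeR's TMM factors) in siCTR and at 82.7, 96.1 and 92.4 CPM in siLSD1. The siLSD1 libraries kept 18.5% of the control mean, a log2 fold change of -2.44 (SE 0.11, adjusted p = 2.27e-07, by the quasi-likelihood test of edgeR, Benjamini-Hochberg over all tested genes). Libraries held 12513511 to 13561344 reads in genes, and the 44 listed genes together took 1.54% to 1.73% of them. siCTR 2 stood apart from the other siCTR libraries, the chi-square statistic over its degrees of freedom being 21.6 and 27.9 against it and 6.75 between the other two. Within siLSD1 the same ratio was 22.0 for libraries 1 and 3, and 6.19 and 9.94 for the other pairs. The balance of GC-rich over GC-poor genes was lowest in siLSD1 3 (-0.44 on the log2 scale) and highest in siLSD1 1 (0.32). The label U2OS was only partly borne out: VIM (395 to 464 FPKM, read counts per gene length and library depth) and COL5A1 (33.1 to 53.2 FPKM) were high, but SPARC had 0 to 3 reads and RUNX2 0 to 4 reads, both osteoblast-lineage genes, and KRT8 and KRT18 ranged from 350.5 to 636 FPKM. CDKN2A, known to be silent in U2OS, had 1841 to 2883 reads. The cells are therefore called by their label only. Of blood and endothelial markers, PTPRC, HBB and PECAM1 had 0 to 3 reads in any library. The 3 endothelial markers summed to 0.605 to 1.03 FPKM in siCTR and 1.70 FPKM in siLSD1, and their part in the results was not tested.

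Few of the 41 genes differed between the groups. At adjusted p under 0.05, 1 gene rose, the glucose transporter SLC2A3, against 1.07% of all tested genes, and 0 fell, against 0.371% of all tested genes. DESeq2 and limma-voom made the same call and no other. At unadjusted p under 0.05, 4 were higher (SLC2A3, EPAS1, ARNT and VEGFA; 7.48% of all tested genes) and 3 were lower (LDHB, PDK3 and ENO2; 6.55% of all tested genes). These shares of the 41 lay close to those of the whole table. All 3 siLSD1 libraries lay above all 3 siCTR libraries for 5 genes (11.4% of all tested genes) and below them for 4 (9.97% of all tested genes). The median log2 fold change of the 41 genes was -0.01, the same to 2 decimals as the median of all tested genes, with a range from -0.51 to 0.87. For 25 of the 41 genes the whole 95% interval of the log2 fold change lay within 0.5 of 0, and the median interval reached 0.27 to either side.

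**Figure D1:**
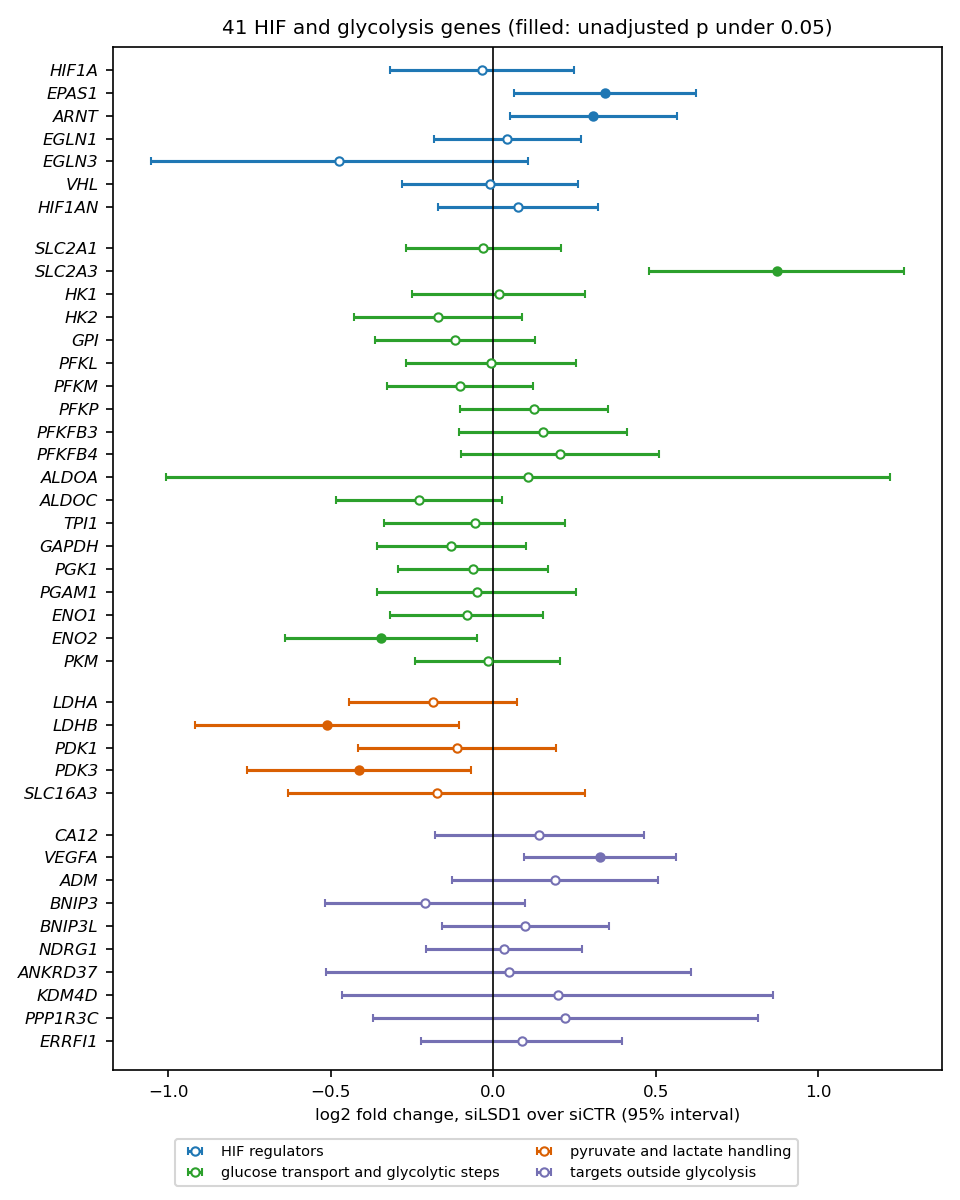
Log2 fold change of siLSD1 over siCTR with its 95% interval (edgeR) for the 41 tested genes, coloured by role, filled where the unadjusted p was under 0.05. Most intervals cross 0, SLC2A3 lies farthest to the right at 0.87, and the 5 genes of pyruvate and lactate handling all lie left of 0.

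HIF subunits and regulators came first. HIF1A itself had 160.2, 152 and 181 CPM in siCTR against 137, 158 and 187 CPM in siLSD1. The groups overlapped, and the log2 fold change was -0.04 (95% interval -0.32 to 0.25), with a sign that turned when siCTR 3 or siLSD1 1 was left out (0.04 and 0.07). EPAS1, the alpha subunit best known from endothelium and kidney, had 185, 135 and 181 CPM in siCTR and 219.8, 203 and 213 CPM in siLSD1. Every siLSD1 library was above every siCTR library, siCTR 2 being the lowest. The difference of 0.34 (SE 0.13) had an unadjusted p of 0.020 and did not pass adjustment (adjusted p = 0.245, edgeR), and it was 0.21 without siCTR 2. With replicate number added to the edgeR fit, EPAS1 was at 0.36 (adjusted p = 0.033). ARNT, the shared partner of both alpha subunits, had 75.2, 62.2 and 74.4 CPM in siCTR and 81.4, 90.4 and 90.4 CPM in siLSD1. Again no library overlapped, at a log2 fold change of 0.31 (SE 0.12, unadjusted p = 0.023, adjusted p = 0.259, edgeR).

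Of the oxygen sensors, EGLN1 was the prolyl hydroxylase with nearly all of the family's FPKM, 97.9% ± 0.80 in siCTR and 98.2% ± 0.36 in siLSD1 (SD, n = 3). Its log2 fold change was 0.04 (95% interval -0.18 to 0.27), although 55.8% of its exon bases are shared on the same strand with another annotated gene. EGLN3, itself a HIF target, was scarce, with 3.77, 3.43 and 2.45 CPM in siCTR and 2.61, 2.33 and 2.0 CPM in siLSD1. siCTR 3 fell within the siLSD1 range, and the log2 fold change of -0.47 (SE 0.27) had the largest size of any regulator but did not pass (unadjusted p = 0.101, adjusted p = 0.453, edgeR). EGLN2 had 3 to 15 reads per library and was not tested, and 30.6% of its exon bases are shared with the read-through gene RAB4B-EGLN2. VHL, the substrate receptor of the degrading ligase, and HIF1AN, the asparaginyl hydroxylase, had log2 fold changes of -0.01 (95% interval -0.28 to 0.26) and 0.08 (95% interval -0.17 to 0.32).

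**Figure D2:**
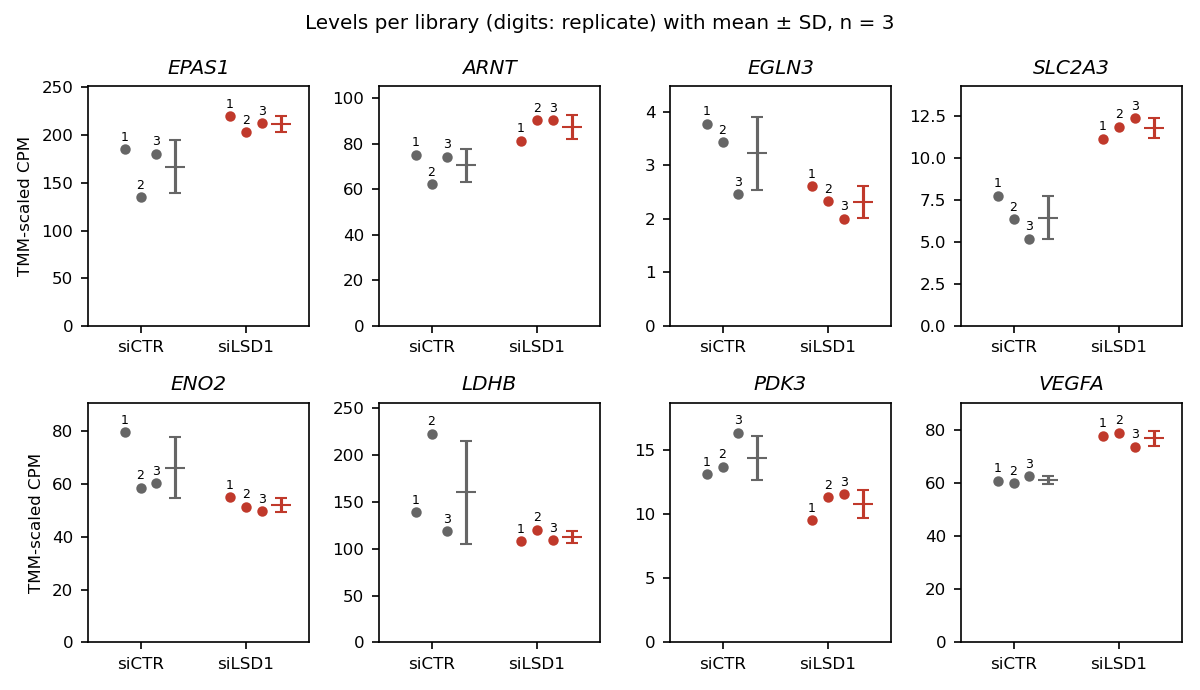
TMM-scaled CPM in each library (points, with the replicate number) and mean ± SD (n = 3) for the 7 listed genes at unadjusted p under 0.05 and EGLN3. The siLSD1 points of SLC2A3, VEGFA, EPAS1 and ARNT all lie above the siCTR points, and the LDHB mean of siCTR is carried by replicate 2.

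Among the listed genes of glucose uptake and glycolysis, SLC2A3 was the only one with a call. SLC2A3 (GLUT3; chr12:7919230-8019007, minus strand, GRCh38), a high-affinity glucose transporter, had 101, 82 and 70 reads in siCTR and 150, 148 and 167 reads in siLSD1. In scaled units these were 7.78, 6.38 and 5.21 CPM against 11.2, 11.9 and 12.4 CPM, with every siLSD1 library above every siCTR library. It rose 1.83-fold, a log2 fold change of 0.87 (SE 0.18, 95% interval 0.48 to 1.26, adjusted p = 0.033, edgeR). The call was lost when any library other than siCTR 1 was left out, with adjusted p from 0.077 to 0.145 and log2 fold changes from 0.74 to 0.91 in those 5 fits, and it was kept without siCTR 1 (adjusted p = 0.025). The annotation holds 3 pseudogene copies of SLC2A3, which may share its reads. In bulk RNA, a rise in every cell and a rise in some of the cells cannot be told apart. SLC2A1 (GLUT1), the widely expressed transporter and a classic HIF target, had 126, 125 and 137 CPM in siCTR and 136, 128 and 116 CPM in siLSD1. Its groups overlapped at a log2 fold change of -0.03 (95% interval -0.27 to 0.21). SLC2A1 remained the main transporter by FPKM, so the 2 transporters together summed to 34.0 ± 1.6 FPKM in siCTR and 34.8 ± 2.70 FPKM in siLSD1 (SD, n = 3).

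None of the listed enzymes of the glycolytic steps passed adjustment (2 related enzymes outside the list, HKDC1 and ENO3, did and are given further on). In FPKM, which corrects for gene length, the highest siCTR means of the listed enzymes were those of GAPDH at 2116 ± 134, ENO1 at 939 ± 71.8, LDHA at 693 ± 67.5 and PKM at 641 ± 34.7 (SD, n = 3). Among the listed enzymes of the glycolytic steps, low levels were those of ALDOA at 0.40, PFKFB3 at 7.90 ± 0.67, PFKFB4 at 8.54 ± 1.17 and HK2 at 11.4 ± 1.26 (SD, n = 3). LDHA and PKM, neighbours in that order, overlapped in siCTR, at 621 to 755 and 615 to 680.4 FPKM. TPI1 (340 ± 52.1), PGK1 (191 ± 13.1), PGAM1 (152 ± 27.8) and GPI (114 ± 5.73 FPKM) followed, and PGK1 did not overlap PGAM1 in siCTR.

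**Figure D3:**
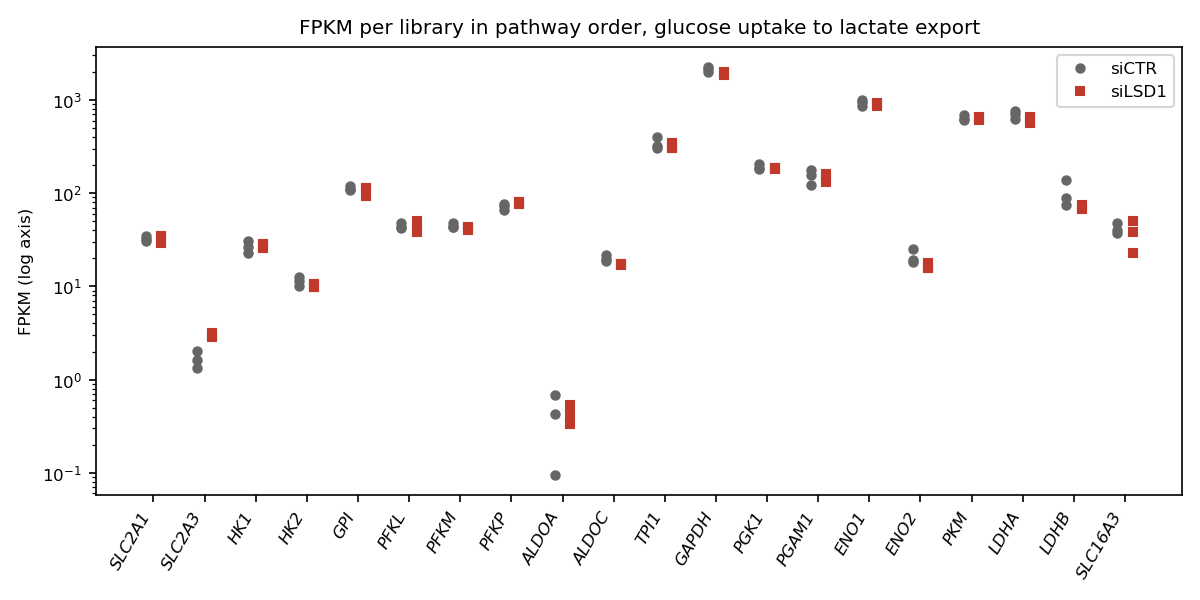
FPKM of each library on a log axis for 20 genes in pathway order, from glucose uptake to lactate export. SLC2A3 shows the widest gap between the groups, most other genes overlap, and ALDOA lies below 1 FPKM in every library.

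Hexokinases HK1 and HK2, which trap glucose as its phosphate, had log2 fold changes of 0.02 and -0.17. GPI, the isomerase that follows, was at -0.12. Of the phosphofructokinases, which catalyse the committed step, PFKP was higher in every siLSD1 library (290.1 to 304 CPM against 254 to 289 CPM) and PFKM lower in every one (193 to 204 CPM against 206 to 229 CPM). Both differences were small, 0.13 (95% interval -0.10 to 0.35) and -0.10 (95% interval -0.33 to 0.12), and neither passed. PFKL was at -0.01. PFKFB3 and PFKFB4, which make the fructose bisphosphate that activates phosphofructokinase, were at 0.15 and 0.21 with overlapping libraries. The later steps (TPI1, GAPDH, PGK1, PGAM1, ENO1 and PKM) had log2 fold changes from -0.13 for GAPDH to -0.02 for PKM. Their intervals all included 0, the widest being that of PGAM1 (-0.36 to 0.26).

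ALDOC, an aldolase best known from brain, had 44.2, 40.7 and 37.9 CPM in siCTR and 34.8, 35.4 and 34.5 CPM in siLSD1. No library overlapped, at a log2 fold change of -0.23 (SE 0.12, unadjusted p = 0.075, adjusted p = 0.412, edgeR). ENO2, the neuronal enolase, had 79.6, 58.6 and 60.3 CPM in siCTR and 55.1, 51.4 and 49.8 CPM in siLSD1. The siLSD1 libraries were lower throughout, with siCTR 1 well above the other two controls. ENO2's log2 fold change of -0.34 (SE 0.14, unadjusted p = 0.026, adjusted p = 0.270, edgeR) was -0.19 without siCTR 1. ALDOA, the aldolase of muscle and most tissues, had only 3 to 21 reads per library and 9 to 38 in a second counting of the same libraries. On the same strand, 42.8% of its exon bases are covered by the annotated gene ENSG00000285043, and the part of this overlap in its low count was not tested. Its log2 fold change of 0.11 had a 95% interval from -1.01 to 1.22, too wide to place aldolase A.

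All 5 tested genes of pyruvate and lactate handling had log2 fold changes below 0, against 6246 of the 11844 genes in the whole table. By edgeR 0 of them passed adjustment and 2 were lower at an unadjusted p under 0.05 (6.55% of all tested genes), and by DESeq2 and limma-voom 0 passed as well. LDHA, the pyruvate-reducing lactate dehydrogenase subunit and a classic HIF target, had 1826, 2275 and 2082 CPM in siCTR and 1653, 1809.6 and 1975 CPM in siLSD1. The ranges overlapped, at a log2 fold change of -0.19 (95% interval -0.44 to 0.07, adjusted p = 0.511, edgeR). It was -0.11 without siCTR 2 and -0.27 without siCTR 1. LDHB, the subunit that favours lactate oxidation, had 139, 223 and 119 CPM in siCTR and 108, 120.1 and 109 CPM in siLSD1. One siCTR library was far above all others, so the log2 fold change of -0.51 (SE 0.19, unadjusted p = 0.017, adjusted p = 0.234, edgeR) was -0.20 without siCTR 2. With replicate number added to the edgeR fit, LDHB was at -0.46 (adjusted p = 0.0055). Another annotated gene shares 33.4% of the LDHB exon bases on the same strand.

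PDK1 and PDK3, kinases that shut pyruvate out of mitochondria by inactivating pyruvate dehydrogenase, were the next pair. PDK3 had 13.1, 13.7 and 16.4 CPM in siCTR and 9.54, 11.3 and 11.6 CPM in siLSD1. No library overlapped, and the log2 fold change was -0.41 (SE 0.16, unadjusted p = 0.022, adjusted p = 0.258, edgeR). PDK1 lay at -0.11 (95% interval -0.42 to 0.19) with overlapping libraries. SLC16A3 (MCT4), the hypoxia-induced lactate exporter, had 243, 210.1 and 195 CPM in siCTR and 258, 198 and 118 CPM in siLSD1. The siLSD1 group held both the highest and the lowest library, and the log2 fold change turned from -0.17 to 0.08 without siLSD1 3, the library with the lowest share of GC-rich genes, and was -0.45 (unadjusted p = 0.038) without siLSD1 1. The GC content of SLC16A3 is 62.7%, and with a GC and length correction its log2 fold change was -0.13 (unadjusted p = 0.299). SLC16A1 (MCT1), the other lactate carrier on the list, had 0 or 1 read in each library and was not tested; a count of 0 allows up to 3 reads, or 0.221 to 0.240 CPM.

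Among the HIF targets outside glycolysis, 9 of the 10 tested genes had log2 fold changes above 0, against 5598 of the 11844 genes in the whole table. By edgeR 0 passed adjustment and 1 was higher at an unadjusted p under 0.05 (7.48% of all tested genes), and 0 passed by DESeq2 or limma-voom. For 4 of the 9 (CA12, NDRG1, ANKRD37 and ERRFI1) the sign turned when 1 library was left out. VEGFA, the angiogenic growth factor, had 61.0, 60.03 and 62.7 CPM in siCTR and 77.9, 79.1 and 73.8 CPM in siLSD1. The groups were well apart, with a spread under 3 CPM in each (SD 1.34 and 2.81, n = 3). The log2 fold change was 0.33 (SE 0.11, 95% interval 0.10 to 0.56, unadjusted p = 0.0094), which did not pass over all genes (adjusted p = 0.182, edgeR). ADM, the vasodilator adrenomedullin, was at 0.19 (95% interval -0.13 to 0.51). It was at 0.37 without siCTR 2 and at 0.09 without siCTR 3. Its unadjusted p fell under 0.05 without siCTR 2 and with a GC and length correction (edgeR), and it passed adjustment in neither. CA12, a membrane carbonic anhydrase, was at 0.14 and NDRG1, a stress-induced gene, at 0.03, each with overlapping libraries.

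BNIP3 and BNIP3L, mitophagy receptors, had log2 fold changes of -0.21 (95% interval -0.52 to 0.10) and 0.10 (95% interval -0.16 to 0.36). Without siCTR 2, BNIP3 was at -0.052. The annotation holds 44 pseudogene copies of BNIP3, and reads shared with these copies make its value uncertain, as do the 65 copies for GAPDH. ANKRD37, KDM4D, PPP1R3C and ERRFI1 lay between 0.05 and 0.22. The first 3 of these had 20 to 54 reads per library, and their intervals spanned more than 1 log2 unit. CA9, the carbonic anhydrase much used as a marker of hypoxia, had 0 to 5 reads in every library and was not tested. With 35.7% of its exon bases covered by ARHGEF39 on the other strand and no statement of stranded counting, those few reads cannot be assigned. The expression of MIR210HG, the host of a hypoxia-induced microRNA and the listed gene without a row in the table used, was not analysed here.

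**Figure D4:**
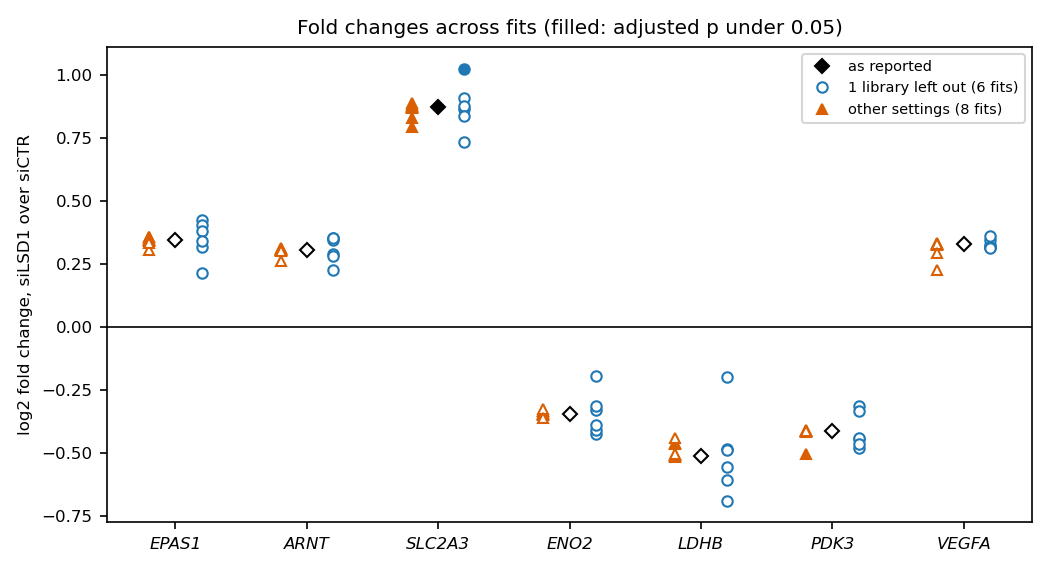
Log2 fold changes of the 7 genes at unadjusted p under 0.05 in the reported edgeR fit (diamonds), with 1 library left out (circles, 6 fits) and under 8 other settings (triangles), filled where the adjusted p was under 0.05. All points keep their side of 0, SLC2A3 is filled in 1 of the 6 leave-out fits, and LDHB and ENO2 move most towards 0 when 1 siCTR library is left out.

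Isozyme use was compared as each gene's share of the summed FPKM of its step, over 14 shares and with exact two-sided permutation tests of 3 against 3 libraries, whose smallest possible p is 0.1. GLUT1 made up 94.1%, 95.1% and 96.3% of the 2 glucose transporters in siCTR and 92.3%, 91.4% and 90.2% in siLSD1. The groups did not overlap (exact permutation p = 0.1, adjusted p = 0.35). PFKP made up 44.6% ± 1.09 of phosphofructokinase in siCTR and 47.8% ± 2.23 in siLSD1, and PFKM 27.8% ± 1.67 and 25.4% ± 0.58 (SD, n = 3), each without overlap and at an exact permutation p of 0.1. PDK1 took 19.3% ± 0.37 of PDK1 plus PDK3 in siCTR and 22.9% ± 1.56 in siLSD1 (SD, n = 3, exact permutation p = 0.1, adjusted p = 0.35). For the other 10 shares the groups overlapped, among them HK1 in hexokinase (69.8% and 72.6%), LDHA in lactate dehydrogenase (87.5% and 89.6%) and ENO1 in enolase (97.8% and 98.2%). Shares were taken over listed genes only. HKDC1, outside the list, had 64.7 ± 7.53 FPKM in siCTR and 94.5 ± 5.0 in siLSD1, above HK1 and HK2, and ENO3 had 32.3 ± 1.55 and 20.9 ± 1.29 FPKM (SD, n = 3). PDK4, also outside it, had 9.19 ± 0.39 and 11.3 ± 2.67 FPKM, above PDK1 and PDK3 in both groups. PDK2 had 3.31 ± 0.23 and 3.21 ± 0.51 FPKM (SD, n = 3). These shares therefore do not describe the whole step. ALDOC took 98.1% of aldolase FPKM in siCTR, a share that rests on the low ALDOA count given above.

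**Figure D5:**
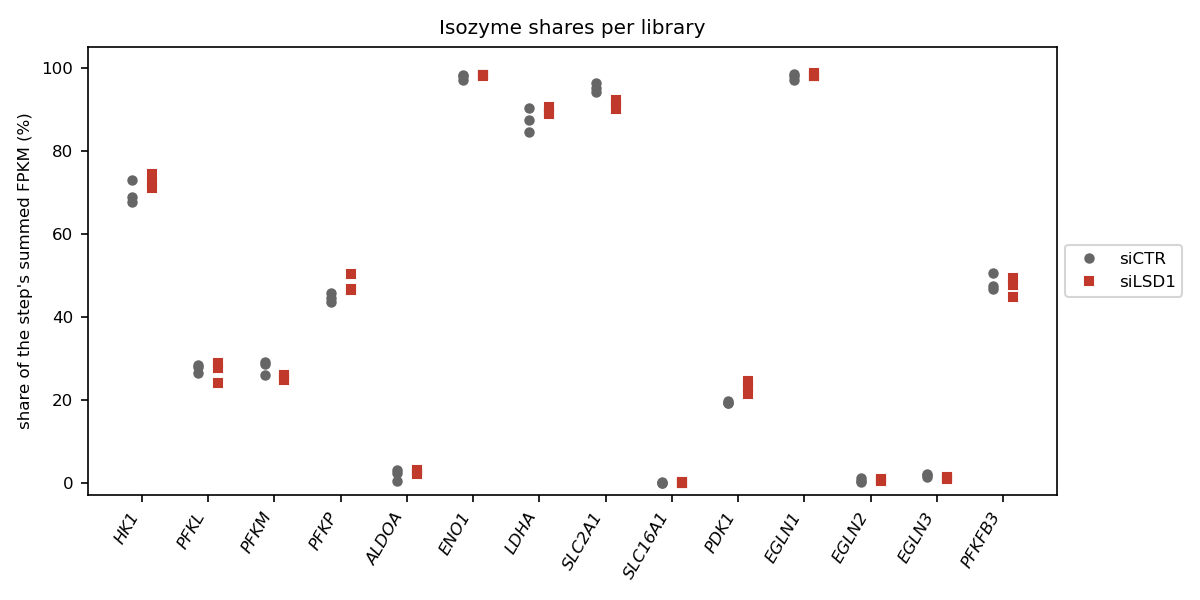
Share of each isozyme in the summed FPKM of its step, in percent, for the 3 siCTR and 3 siLSD1 libraries and the 14 shares tested. The groups lie apart for SLC2A1, PFKP, PFKM and PDK1 and overlap for the other 10.

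Promoter windows were read for the core letters of the hypoxia response element, ACGTG, searched on both strands (CACGT on the other), which overlaps the E-box CACGTG bound by other factors. The windows were RefSeq promoters of 300 bases, 250 of them before the start (GRCh38.p14). Of the 45 genes, 39 matched, with 67 windows, of which 26 (38.8%) held the letters, against 21.4% of all 35116 windows. At least 1 window held them in 22 of the 39 genes. The 19 tested genes with the letters had a median log2 fold change of -0.11 and the 17 without had 0.02, against -0.02 and -0.01 for all tested genes with and without them. These medians are descriptions, since a match of 5 letters is no proof of a bound site. The stretches below show the 200 bases before the start for LDHA, which had the most matches of any listed gene (5, the palindrome counting on both strands), and for ALDOC, ENO2 and PDK3, 3 of the 4 genes that were lower in every siLSD1 library. The fourth, PFKM, held the letters in 2 of its 7 windows and is not shown. LDHB, with the lowest log2 fold change of the listed genes, held no match, and neither did EPAS1 and ARNT, which were higher in every siLSD1 library. PFKP, also higher in every siLSD1 library, held the letters in 1 of its 4 windows. Matches are in capitals, and CACGTG is capitalised whole.
LDHA, chr11:18394363-18394562, plus strand: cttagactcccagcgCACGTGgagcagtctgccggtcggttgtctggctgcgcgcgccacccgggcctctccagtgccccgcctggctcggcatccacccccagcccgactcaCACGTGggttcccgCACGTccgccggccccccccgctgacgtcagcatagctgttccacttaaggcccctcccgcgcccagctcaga
ALDOC, chr17:28576896-28577095, minus strand: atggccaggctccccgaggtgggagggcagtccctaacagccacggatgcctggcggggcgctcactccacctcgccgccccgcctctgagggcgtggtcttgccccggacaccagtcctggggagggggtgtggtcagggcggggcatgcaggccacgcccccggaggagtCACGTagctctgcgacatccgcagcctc
ENO2, chr12:6914380-6914579, plus strand: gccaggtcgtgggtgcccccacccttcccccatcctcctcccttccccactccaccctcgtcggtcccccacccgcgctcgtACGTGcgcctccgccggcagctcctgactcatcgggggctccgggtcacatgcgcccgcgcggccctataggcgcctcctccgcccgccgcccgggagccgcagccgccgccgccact
PDK3, chrX:24465086-24465285, plus strand: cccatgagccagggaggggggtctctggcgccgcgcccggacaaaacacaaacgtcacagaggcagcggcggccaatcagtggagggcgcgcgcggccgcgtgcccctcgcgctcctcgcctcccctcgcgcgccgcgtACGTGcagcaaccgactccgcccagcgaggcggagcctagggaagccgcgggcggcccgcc
ALDOC, ENO2 and PDK3 each held 1 match in the stretch shown, and ALDOC held 3 in its full window. VHL, SLC2A3, SLC16A1, VEGFA, BNIP3L and NDRG1 had no entry.

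Beyond the 45 genes, 101 other genes of HIF regulation, glycolysis and the hypoxic response were listed, of which 84 were tested. At adjusted p under 0.05, 3 of the 84 rose (1.07% of all tested genes) and 2 fell (0.371%), and at unadjusted p under 0.05, 9 were higher (7.48% of all tested genes) and 12 lower (6.55%). Among glycolysis and its branches, HKDC1, a hexokinase-like protein, rose from 239 ± 25.1 to 348 ± 15.5 CPM (SD, n = 3; log2 fold change 0.55, adjusted p = 0.033, edgeR). ENO3, the muscle enolase, fell from 51.4 ± 2.82 to 33.2 ± 1.78 CPM (SD, n = 3; log2 fold change -0.63, adjusted p = 0.019, edgeR). TIGAR, a fructose bisphosphatase induced by p53, had 41, 37 and 60 reads in siCTR and 22, 24 and 25 reads in siLSD1. Its libraries did not overlap, at a log2 fold change of -0.95 (SE 0.28, adjusted p = 0.126, edgeR).

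Among the 44 tested hypoxia-responsive genes, STC2, a secreted glycoprotein hormone, rose from 36.5 ± 4.73 to 57.2 ± 9.12 CPM (SD, n = 3; log2 fold change 0.65, adjusted p = 0.048, edgeR). HMOX1, heme oxygenase 1 and also a target of NRF2, fell from 34.1 ± 2.55 to 20.5 ± 3.10 CPM (SD, n = 3; log2 fold change -0.73, adjusted p = 0.023, edgeR). In HKDC1, ENO3, STC2 and HMOX1 all siLSD1 libraries lay on one side of all siCTR libraries, and each lost its call in 3 or more of the 6 fits with 1 library left out. In those 6 fits the log2 fold changes ran from 0.46 to 0.60 for HKDC1, -0.67 to -0.59 for ENO3, 0.52 to 0.75 for STC2 and -0.86 to -0.65 for HMOX1. STC2 also missed the threshold with limma-voom (adjusted p = 0.053) and with library-size scaling (adjusted p = 0.058). With 1 library left out, STC2 kept its call only without siCTR 1 (adjusted p = 0.035), and without siLSD1 2 none of these 4 genes kept it (adjusted p from 0.075 to 0.147). In the HIF machinery 0 of 10 tested genes passed adjustment by edgeR, DESeq2 or limma-voom, and 3 were lower at an unadjusted p under 0.05 by edgeR (6.55% of all tested genes). ELOB, ELOC and RBX1, subunits of the VHL ligase, had log2 fold changes of -0.43, -0.37 and -0.40 at unadjusted p of 0.017, 0.026 and 0.026 (adjusted p = 0.230, 0.270 and 0.270, edgeR). These 3 were highest in siCTR 2, and without that library they were at -0.20, -0.18 and -0.19. With replicate number added to the edgeR fit, ELOB and RBX1 passed (adjusted p = 0.016 and 0.045) and ELOC did not (adjusted p = 0.058). CUL2, the cullin of the same ligase, was lower in every siLSD1 library at -0.21 (unadjusted p = 0.089, adjusted p = 0.436, edgeR), and at -0.21 without siCTR 2 as well. It was at -0.14 without siLSD1 1 and at -0.28 without siLSD1 3.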

How the data were processed

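RNA-seq of 3 siCTR and 3 siLSD1 libraries was analysed. The authors aligned reads with STAR (no version) and deposited read counts per gene; the counter, genome build, annotation and strand setting are not given in the sources used here. The authors also deposited FPKM values, used here for levels between genes and for isozyme shares, and a second set of counts in tables of 2 libraries. Deposited columns of the authors' own comparisons (fold changes, p-values) were not used. No column of another sample was used.

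Counts were filtered with filterByExpr (minimum count 10), scaled by TMM and tested by edgeR 4.0.16 quasi-likelihood without covariates, in R 4.3.3, with Benjamini-Hochberg adjustment over 11844 genes and a threshold of 0.05. Intervals are 95% and rest on 3 libraries a group. The biological coefficient of variation was 12.6%. Scripts were tested on simulated data. Alternatives were DESeq2 1.42.0, limma 3.58.1 voom, library-size scaling, no filter, at least 1 CPM in 3 libraries, a replicate block and leaving out each library. A GC and length correction and the second counting were chosen after seeing the data. Coordinates are from GENCODE on GRCh38, and 15352 of 15585 symbols matched.

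The members and lists were chosen with earlier results of these data known. Values in every library are given for listed genes that passed, had an unadjusted p under 0.05 or had the largest fold change in their role. Of the other pathway genes, those that passed and the 3 with the smallest p in each direction are named, except 1 gene that is not reported here. Other genes named with values (CUL2, ELOB, ELOC, RBX1, PDK2 and PDK4) were chosen after their values were seen.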

Additional observations from a re-analysis of the deposited data

How the results depend on the processing

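Of the settings tried, DESeq2, limma-voom, library-size scaling, no filter and a filter of at least 1 CPM in 3 libraries kept the same 7 listed genes at unadjusted p under 0.05 and SLC2A3 as the only one past adjustment. Over all genes the counts at adjusted p under 0.05 moved from 127 higher and 44 lower to 210 and 113 with DESeq2, 188 and 102 with no filter, 525 and 341 with the GC and length correction, and 45 to 99 and 7 to 37 with 1 library left out. The main test did not pair libraries by replicate number, and the labels state no pairing. Deviations from the group means correlated at 0.33, 0.07 and 0.31 for the same numbers, and at -0.29 to 0.0072 for different numbers. Every library thus correlated best with its own number, a hint of pairing in the data. The second counts were also deposited in pairs of the same number. With the replicate block, 489 genes were higher and 408 lower at adjusted p under 0.05. Among them were 2 listed genes higher (SLC2A3 and EPAS1), 1 lower (LDHB, adjusted p = 0.0055), and 6 of the other pathway genes higher and 6 lower. Those 6 lower genes included ELOB, RBX1 and TIGAR, the last at adjusted p = 0.029 (edgeR). With the GC and length correction 1 listed gene was lower at adjusted p under 0.05 (PDK3, -0.50, adjusted p = 0.041). Of the other pathway genes 14 were higher at unadjusted p under 0.05, against 1456 of all 11761 genes tested in that fit. At adjusted p under 0.05, 7 were higher and 7 lower, against 525 and 341 of all genes. With the second counting 5 listed genes were lower at unadjusted p under 0.05, against 797 of all 11960 genes tested in that fit. The causes were not tested.

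The sign turned for VHL with limma-voom (0.0020), the replicate block (0.0014) and the second counting (0.0073), for HIF1AN (-0.042), HK1 (-0.0070), PFKL (0.086), TPI1 (0.031) and PGAM1 (0.0021) with the GC and length correction, for PFKL with the 1 CPM filter (8.2e-06), and for ALDOA with the second counting (-0.19). With 1 library left out, log2 fold changes ranged from -0.16 to 0.069 for HIF1A, -0.083 to 0.13 for VHL, -0.087 to 0.032 for SLC2A1, -0.080 to 0.12 for HK1, -0.097 to 0.095 for PFKL, -0.34 to 0.68 for ALDOA, -0.14 to 0.087 for TPI1, -0.11 to 0.0081 for PGK1, -0.19 to 0.092 for PGAM1, -0.054 to 0.026 for PKM, -0.45 to 0.079 for SLC16A3, -0.0017 to 0.22 for CA12, -0.032 to 0.099 for NDRG1, -0.10 to 0.17 for ANKRD37 and -0.0031 to 0.19 for ERRFI1. Counts of listed genes with 1 library left out ran from 2 to 5 higher and 2 to 3 lower at unadjusted p under 0.05, and from 0 to 1 higher at adjusted p under 0.05. For the other pathway genes 6 to 10 were higher at unadjusted p under 0.05, 7 to 13 were lower at unadjusted p under 0.05, 0 to 3 were higher at adjusted p under 0.05, 0 to 2 were lower at adjusted p under 0.05. Over all 11958 to 12007 genes tested in those fits, 607 to 924 were higher and 454 to 889 lower at unadjusted p under 0.05. The number of listed genes with all siLSD1 libraries lower was 5 to 7 with 1 library left out, against 4 with every library. Leaving out a library can only keep or raise this count, and its share over all genes was not computed for those fits. The PDK1 share differed by 5.02 points on raw counts against 3.51 on FPKM.

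With 3 libraries a group and a biological coefficient of variation of 12.6%, the 95% interval of a listed gene reached 0.27 on the log2 scale to either side in the median, without adjustment, and differences of 0.33 (VEGFA) and -0.41 (PDK3) did not pass over all genes. Genes with few reads (ALDOA, EGLN2, EGLN3, ANKRD37, KDM4D, PPP1R3C, SLC16A1 and CA9) are not placed at this depth. The strand setting, pseudogene copies and overlapping genes leave the levels of ALDOA, EGLN1, EGLN2, LDHB, GAPDH, BNIP3 and ANKRD37, among others, uncertain. PGAM1, LDHA, PKM, TPI1 and ENO1 have 13, 6, 5, 4 and 4 annotated pseudogene copies, and SLC2A3 has 3. Of the exon bases of VHL and CA9, 23.5% and 35.7% are covered by another gene. The cells went partly against their label, and RNA levels say nothing of HIF1A protein or of glycolytic flux.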
